A study of Mus musculus with 6 samples.

Results

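Enzymes that place and remove acetyl and related acyl groups on lysine, and enzymes that supply the acyl groups, were compared between SMEK1 knockdown and WT libraries of BV2 cells, a mouse microglial cell line. The set was a fixed list of 32 genes, matched by symbol among 54532 genes of the count table, and each had 1 match. It held 10 lysine acetyltransferases, 11 zinc-dependent histone deacetylases (HDAC), 7 sirtuins, 2 alanyl-tRNA synthetases and 2 enzymes that make acetyl-CoA. Of these, 31 had enough counts to be tested and 1, Hdac11, had none. RNA-seq had been done on 3 libraries labelled with a knockdown of SMEK1, a regulatory subunit of protein phosphatase 4 encoded by Ppp4r3a, and on 3 labelled WT. All 6 were grown in serum-containing medium, and the labels name no other treatment. In the design text LV1 and NL are both named among the knockdown derivatives. The sources used here do not say whether the WT cells carried a control construct, or whether replicate libraries are separate cultures or share 1 derived line. An effect of the knockdown and any other difference between the cultures cannot be told apart, and the p-values reflect the spread among these 6 libraries alone, which may be technical.

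Acetyltransferases move an acetyl group from acetyl-CoA to the side chain of lysine, on histones and on many other proteins. Classical HDACs remove it with a zinc ion, whereas sirtuins consume NAD, so that the reaction follows the metabolic state of the cell. Several of these enzymes also handle longer or charged acyl groups. Lactylation, the mark on histone H3 lysine 9 that the series title names, has been proposed to be written by p300, CBP, GCN5, TIP60, HBO1 and MOF (Ep300, Crebbp, Kat2a, Kat5, Kat7 and Kat8), with ACSS2 as a source of lactyl-CoA, and by the alanyl-tRNA synthetases, which can use lactate itself. Class I HDACs and sirtuins have been proposed as its erasers. In macrophages and microglia, such enzymes are known as regulators of inflammatory genes.

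The libraries held 18036591 to 21131557 counts, and 1 count stood for 0.0444 to 0.0597 counts-per-million scaled by the trimmed mean of M values (TMM; below, CPM). Ppp4r3a was at 2.51, 5.42 and 4.25 CPM (knockdown A, B, C) against 18.1, 13.5 and 15.3 CPM (WT A, B, C). It fell by 1.94 on the log2 scale (SE of 0.24, adjusted p = 8.22e-05, quasi-likelihood test of edgeR), to 26.1% of WT. Of 14 microglia and macrophage markers 11 could be tested, with summed levels of 3297 to 3722 CPM in the knockdown and 3861 to 4356 CPM in WT. Sall1 had no count, and P2ry12 and Cx3cr1, defining markers of microglia in the brain, stayed below 1 CPM in every library. Markers of astrocytes, endothelium and fibroblasts summed to less than 1 CPM per library, those of neurons to at most 1.81 CPM, and those of oligodendrocytes to 55.1 to 65.998 CPM in the knockdown and 59.7 to 70.1 CPM in WT. Nearly all of the oligodendrocyte sum was Cnp, at 58.7, 47.9 and 48.3 CPM (knockdown A, B, C) against 56.9, 67.4 and 59.2 CPM (WT A, B, C), not called. Mbp was called higher, at 6.95, 6.84 and 7.05 CPM against 2.59, 2.33 and 2.41 CPM, and Mog and Olig2 had 0 counts. As in any bulk sample, fewer cells with a transcript and less of it per cell cannot be told apart. The libraries of each group spread along a shared axis: the first principal component of the deviations from the group means held 56.4% of that spread, with knockdown A (18.2) and WT B (13.2) at one end and knockdown B (-17.2) and WT A (-16.8) at the other. Several members moved along it, so their values are also given without single libraries or with this component as a covariate where a call changed. The covariate was added after the data were seen and is estimated from the same residuals that the test uses, which makes its p-values too small.

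Across all 12269 genes tested, 40.1% passed an adjusted p of 0.05, with 20.5% called higher and 19.6% called lower. Of the 31 tested members 10 were called (32.3%), 7 higher and 3 lower, with a median log2 fold change of 0.03 against 0.01 for all genes. The higher members were Hdac5, Hdac7, Hdac8, Hdac9, Sirt3, Aars and Acss2, and the lower ones were Hat1, Hdac10 and Sirt2. With library totals in place of TMM 12 members were higher and 1 lower, and that scaling moved the median of all genes up by 0.159. The share of higher calls among all calls went from 51.1% to 71.3% with it. For 16 members the CPM ranges of the groups did not overlap, while 50.9% of all tested genes showed this. Called and at least 2-fold higher were 3 members, Hdac7, Hdac9 and Acss2, beside 5.13% of all tested genes. Of these, Hdac7 had enough counts to be tested only through the knockdown libraries, where it is high, so its call is not independent of the filter.

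**Figure D1:**
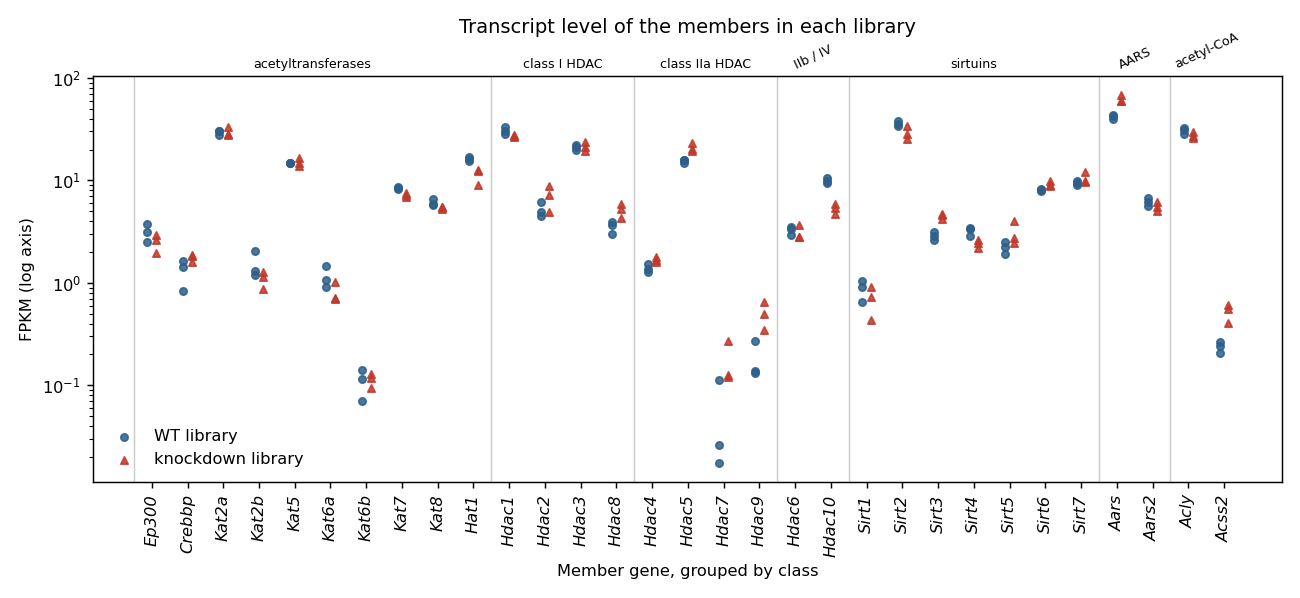
FPKM of the authors on a log axis for the 31 members with counts, one point per library (circles, 3 WT; triangles, 3 knockdown), ordered by class. Aars has the highest mean in both groups, and the lowest mean is that of Hdac7 in WT and of Kat6b in the knockdown.

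Levels between genes are compared per length, in the FPKM of the authors (fragments scaled by gene length and library), given as mean ± SD over 3 libraries. Aars was the most abundant member in WT, at 42.2 ± 1.98 FPKM. Sirt2 followed at 35.7 ± 1.95, Acly at 30.7 ± 2.08, Hdac1 at 30.5 ± 2.42 and Kat2a at 29.5 ± 1.42 FPKM, and the neighbours among these 4 did not differ beyond their spread, apart from the step from Sirt2 to Acly. Ep300 and Crebbp, whose products are large coactivators, were lower, at 3.14 ± 0.632 and 1.29 ± 0.415 FPKM. At the low end in WT were Sirt1 at 0.867 ± 0.205, Acss2 at 0.237 ± 0.0284, Hdac9 at 0.179 ± 0.0772, Kat6b at 0.109 ± 0.0356 and Hdac7 at 0.0518 ± 0.0521 FPKM. The plot of FPKM by library shows this order for all members.

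Among the acetyltransferases 1 of 10 was called, and it was lower. Hat1, which acetylates newly made histone H4 in the cytoplasm, stood at 26.02, 36.9 and 36.5 CPM (knockdown A, B, C) against 48.9, 44.7 and 46.7 CPM (WT A, B, C). All knockdown libraries lay below all WT libraries, with knockdown A the lowest. Hat1 fell by 0.49 on the log2 scale (SE of 0.13, adjusted p = 0.00943), a 1.41-fold difference. The call was lost with library totals (adjusted p = 0.0933). The gene (ENSMUSG00000027018, chromosome 2 from 71388958 to 71441622, plus strand in GRCm38) lies where the median log2 fold change of the 48 tested genes within 5 Mb was 0.03.

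The paired coactivators Ep300 and Crebbp had fold changes of opposite sign, and neither was called. Ep300 was at 27.9, 43.01 and 37.6 CPM (knockdown A, B, C) against 54.03, 36.1 and 44.8 CPM (WT A, B, C), and the groups overlapped. Its log2 fold change was -0.31 (95% interval -0.68 to 0.05, adjusted p = 0.155), and it passed the threshold without knockdown B (adjusted p = 0.0476), without WT B (0.0451), with genes kept at 1 count in any library (0.0436) or with the residual covariate (0.00144). It was -0.16 without knockdown A (adjusted p = 0.467) and -0.16 without WT A (adjusted p = 0.465). Crebbp was at 21.5, 25.7 and 25.5 CPM against 21.97, 11.2 and 19.4 CPM, with WT A above knockdown A and WT B the lowest library. Its log2 fold change was 0.46 (95% interval 0.03 to 0.90, adjusted p = 0.0859), and it passed the threshold without WT A (0.0214), at 1 count in any library (0.00319) or with the residual covariate (0.00224). It was 0.22 without WT B (adjusted p = 0.245). Crebbp lies on chromosome 16, where the median tested gene had a log2 fold change of 0.40, and 0.50 over the 39 tested genes within 5 Mb of Crebbp. Its value was thus below the median of its neighbours. The part of this chromosome-wide difference in the result was not tested.

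The remaining acetyltransferases were not called. Kat2a, the GCN5 subunit of the SAGA and ATAC complexes, was at 115, 98.5 and 99.1 CPM (knockdown A, B, C) against 96.9, 106 and 105 CPM (WT A, B, C), a log2 fold change of 0.02 (95% interval -0.17 to 0.21, adjusted p = 0.877). Kat5, the TIP60 subunit of the NuA4 complex, had 0.04 (95% interval -0.17 to 0.26, adjusted p = 0.749). The Kat5 gene overlaps Rnaseh2c on the other strand over 423 bases, and Rnaseh2c had 16904 counts over the 6 libraries against 3480 for Kat5 and was lower by 0.94, so reads in the shared stretch cannot be assigned without knowledge of strand use. Kat8, the MOF enzyme that acetylates H4 lysine 16, was lower in every knockdown library than in every WT library, with a log2 fold change of -0.15 (95% interval -0.42 to 0.11, adjusted p = 0.338).

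Kat7, the HBO1 enzyme of H3 and H4 acetylation at origins and promoters, was at 39.8, 43.2 and 38.2 CPM (knockdown A, B, C) against 48.1, 46.1 and 47.3 CPM (WT A, B, C). Every knockdown library lay below every WT library, yet the adjusted p of 0.0649 missed the threshold at a log2 fold change of -0.22, and was 0.0151 with the residual covariate. Kat6a, the MOZ enzyme, had -0.49 (adjusted p = 0.0924), with a call without knockdown B (0.0260) or WT B (0.0482) and with the residual covariate (0.00260), and was -0.29 without WT A (adjusted p = 0.338). Kat2b, the PCAF paralogue of Kat2a, had -0.48 (adjusted p = 0.132, and 0.0261 with the residual covariate), and was -0.20 without WT A (adjusted p = 0.523). Kat6b, with 20 to 50 counts per library, had 0.07 and an interval from -0.59 to 0.73, so these libraries do not settle a change within those bounds.

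**Figure D2:**
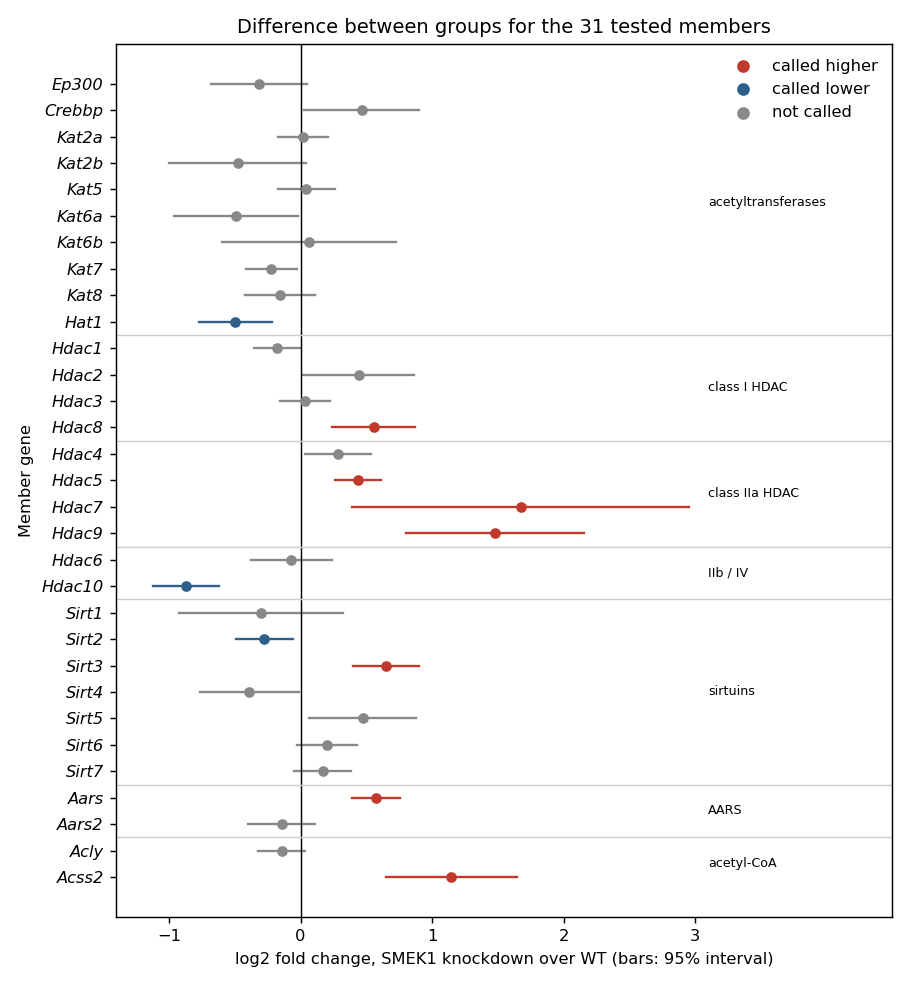
Log2 fold change of each tested member (points) with its 95% interval (bars), knockdown over WT, on a linear axis with 0 marked. The 3 class IIa genes Hdac5, Hdac7 and Hdac9, with Hdac8, Sirt3, Aars and Acss2, lie to the right of 0 and are called higher, and Hat1, Hdac10 and Sirt2 lie to the left.

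Class I HDACs are the catalytic core of the SIN3, NuRD, CoREST and NCoR corepressors, apart from HDAC8, which works outside these complexes and deacetylates the cohesin subunit SMC3. Hdac8 was the member of this class that was called. It was at 28.3, 21.3 and 25.4 CPM (knockdown A, B, C) against 14.4, 18.9 and 17.8 CPM (WT A, B, C), so that each knockdown library exceeded each WT library. Hdac8 rose by 0.55 on the log2 scale (SE of 0.15, adjusted p = 0.00990), 1.47-fold. The gene spans 102284639 to 102505359 on the X chromosome, where the median log2 fold change of the 46 tested genes within 5 Mb was -0.14.

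Hdac1 was at 94.01, 92.9 and 93.4 CPM against 96.7, 106 and 114 CPM in WT, and its knockdown libraries were nearly identical and all lower. The log2 fold change of -0.18 was not called (adjusted p = 0.102), but was without WT A (0.0384) and with the residual covariate (0.0258). Hdac2, its paralogue in the same complexes, was at 21.8, 40.5 and 32.7 CPM against 27.3, 22.3 and 20.4 CPM. Knockdown A lay within the WT range while knockdown B and C lay above it. Hdac2 differed by 0.44 on the log2 scale (adjusted p = 0.0882), and was called without knockdown A (0.00736), without WT A (0.0441), at 1 count in any library (0.00137) and with the residual covariate (9.44e-04). Its log2 fold change was 0.25 without knockdown B (adjusted p = 0.269). Hdac3, the enzyme of the NCoR complexes and a reported substrate of protein phosphatase 4, had a mean of 86.98 ± 7.46 CPM, and of 85.1 ± 5.44 CPM in the WT libraries (SD, 3 libraries each). Its log2 fold change was 0.03 (95% interval -0.16 to 0.22, adjusted p = 0.803, and 0.0362 with library totals), and the ranges overlapped.

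Class IIa HDACs bind MEF2 transcription factors, have little catalytic activity of their own, and shuttle out of the nucleus when kinases create binding sites for 14-3-3 proteins. All 4 genes of the class had higher values in each knockdown library than in each WT library, and 3 were called higher. Over all tested genes 50.9% had groups that did not overlap and 20.5% were called higher. Hdac5, by far the most abundant of the class per length at 15.5 ± 0.580 FPKM in WT and 20.8 ± 1.87 in the knockdown, was at 200.2, 174 and 179.8 CPM against 139, 140.0 and 131 CPM. Hdac5 (ENSMUSG00000008855, chromosome 11 from 102194432 to 102230166, minus strand) rose by 0.43 on the log2 scale (SE of 0.08, adjusted p = 0.00122), 1.35-fold, and the call held under each alternative run.

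Hdac9 was at 5.07, 9.69 and 7.36 CPM (knockdown A, B, C) against 3.94, 2.03 and 1.94 CPM (WT A, B, C), from 97, 218 and 163 counts and 73, 34 and 33 counts. Knockdown A and WT A were the closest libraries, and still did not cross. Hdac9 (ENSMUSG00000004698, chromosome 12 from 34047580 to 34917095, minus strand) rose by 1.48 on the log2 scale (SE of 0.31, adjusted p = 0.00274), 2.78-fold, and was called in each alternative in which it was tested. Hdac7 had only 35, 19 and 19 counts in the knockdown and 14, 3 and 2 in WT, at 1.18 ± 0.565 and 0.351 ± 0.352 CPM (SD, n = 3). It thus had enough counts to be tested only through the knockdown libraries. A filter at 1 CPM in 3 libraries removed Hdac7. It rose by 1.67 on the log2 scale (SE of 0.59, adjusted p = 0.0390), but the call was lost when knockdown A was left out (1.23, adjusted p = 0.163), and likewise for knockdown C (0.0533), WT B (0.109) or WT C (0.141). The Hdac7 gene also shares 29 bases at its 3′ end with Slc48a1 on the other strand, a gene with 18878 counts against 92 that was higher by 1.06, and the part of its reads in the counts of Hdac7 was not tested. Hdac4 was at 26.1, 29.3 and 25.7 CPM against 24.3, 20.4 and 21.8 CPM, and its log2 fold change of 0.29 was not called (adjusted p = 0.0664; 0.0431 without WT A, 0.0201 with library totals and 0.00692 with the residual covariate). Summed per length, class IIa transcripts came to 25.2, 21.9 and 22.5 FPKM (knockdown A, B, C) against 17.7, 17.3 and 16.4 FPKM (WT A, B, C), nearly all of it Hdac5.

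In class IIb, Hdac10, a polyamine deacetylase, was at 18.2, 16.3 and 20.1 CPM (knockdown A, B, C) against 35.3, 31.6 and 33.1 CPM (WT A, B, C). No library of one group came near the other. Hdac10 (ENSMUSG00000062906, chromosome 15 from 89123307 to 89128700, minus strand) fell by 0.87 on the log2 scale (SE of 0.12, adjusted p = 1.19e-04), 1.83-fold, and it was called lower in each alternative run. Hdac6, the cytoplasmic deacetylase of tubulin, was at 21.4, 16.7 and 16.6 CPM against 17.2, 19.6 and 20.7 CPM, with overlapping ranges and a log2 fold change of -0.07 (95% interval -0.38 to 0.24, adjusted p = 0.716). Hdac11, the class IV enzyme, which removes long-chain acyl groups, had 0 counts in every library. A count of 0 allows up to 3 counts over a group, which is 0.0470 CPM for the knockdown libraries and 0.0574 CPM for those of WT, and such limits cover counting error only.

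**Figure D3:**
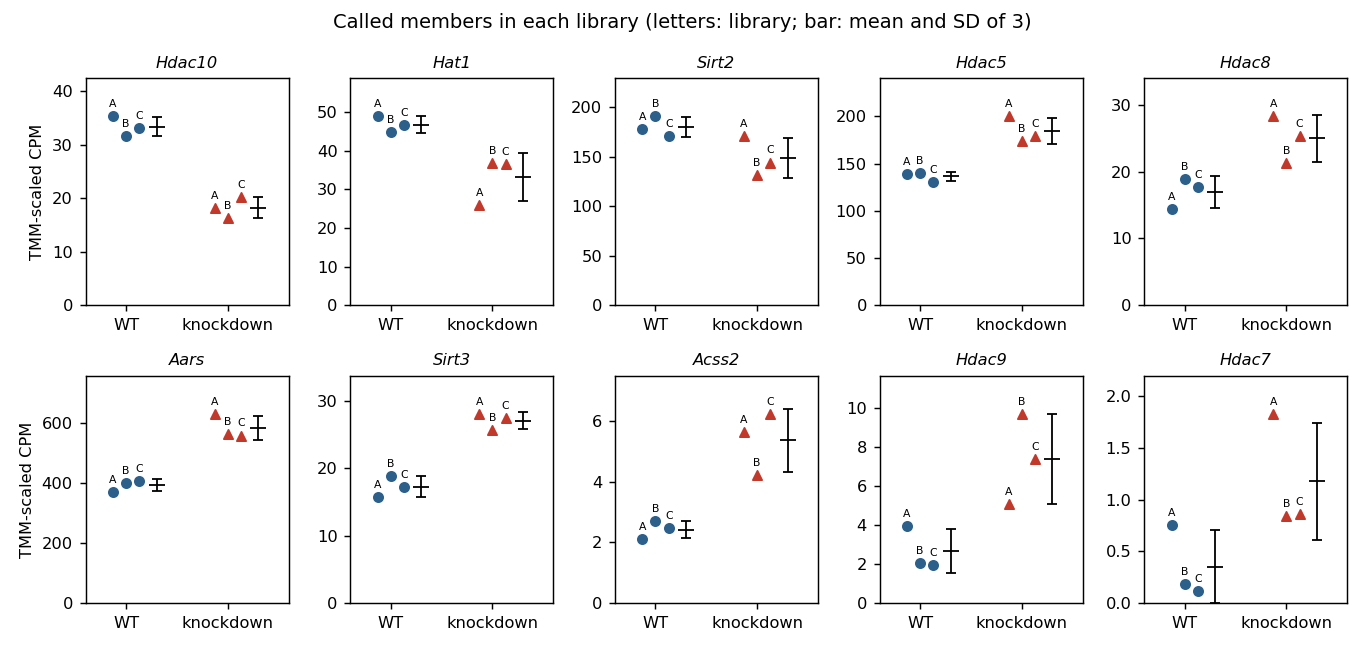
TMM-scaled CPM of the 10 called members on linear axes from 0, one panel per gene, with WT (circles) and knockdown (triangles) libraries A, B and C and the mean and SD of 3 beside them. The groups do not overlap in any panel, and the closest approach is in Sirt2 and Hdac7.

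Among the sirtuins 1 of 7 was called higher and 1 lower. Sirt3, the main deacetylase of the mitochondrial matrix, was at 28.1, 25.7 and 27.5 CPM (knockdown A, B, C) against 15.8, 18.9 and 17.2 CPM (WT A, B, C), with a wide gap between the groups. Sirt3 (ENSMUSG00000025486, chromosome 7 from 140863666 to 140882309, minus strand) rose by 0.65 on the log2 scale (SE of 0.12, adjusted p = 9.52e-04), 1.57-fold, and was called in each alternative run. Its gene overlaps Psmd13 over 342 bases at its 5′ end and Ric8a over 707 bases at its 3′ end, both on the other strand and with more counts (17035 and 9203, against 2626 for Sirt3). The log2 fold changes of these partners were 0.23 for Psmd13 (adjusted p = 0.0814) and 0.28 for Ric8a (adjusted p = 0.0400).

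Sirt2, a cytoplasmic deacetylase and the most abundant sirtuin at 35.7 ± 1.95 FPKM in WT, was at 171, 132 and 144 CPM against 178, 191 and 172 CPM. Knockdown A, at the upper end of its group, came within 1 CPM of WT C. Sirt2 fell by 0.27 on the log2 scale (SE of 0.10, adjusted p = 0.0427), and this call was lost in most alternatives: without knockdown B (-0.17, adjusted p = 0.171), knockdown C (0.160), WT A (0.0554), WT B (0.119) or WT C (0.0724), with library totals (0.258), and in limma on log2(FPKM + 1) (0.0733). The start of Sirt2 overlaps that of Nfkbib, an inhibitor of NF-kappaB read from the other strand, over 778 bases, and Nfkbib was lower by 0.40 (adjusted p = 0.00376).

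Sirt5, which removes succinyl, malonyl and glutaryl groups in mitochondria, was at 24.6, 15.2 and 16.8 CPM (knockdown A, B, C) against 11.6, 15.4 and 13.8 CPM (WT A, B, C). Knockdown A was far above the rest, and knockdown B lay below WT B. The log2 fold change of 0.47 was not called (adjusted p = 0.0647), but was without knockdown B (0.0121), with library totals (0.0171), with upper-quartile scaling (0.0496), at 1 count in any library (0.00764), with DESeq2 (0.0464) and with the residual covariate (6.60e-04). Its log2 fold change was 0.25 without knockdown A (adjusted p = 0.231) and 0.36 without WT A (adjusted p = 0.176). Sirt4, another mitochondrial sirtuin, was at 6.27, 5.42 and 5.96 CPM against 8.04, 6.86 and 8.18 CPM, all lower in the knockdown, with -0.39 (adjusted p = 0.0908, 0.0262 with the residual covariate, and 0.0421 in limma on log2(FPKM + 1)). The 3 mitochondrial sirtuins thus had 1 call, higher, and fold changes of both signs.

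The nuclear sirtuins were not called. Sirt6, a deacetylase of H3 lysine 9, was at 27.1, 25.9 and 24.9 CPM against 21.9, 23.2 and 22.5 CPM, higher in every knockdown library but with a log2 fold change of only 0.20 (adjusted p = 0.143, 0.0128 with library totals and 0.0462 with the residual covariate). Sirt7, of the nucleolus, had 0.17 (adjusted p = 0.200, 0.0109 with library totals). Sirt1 was at 2.30, 5.02 and 3.93 CPM (knockdown A, B, C) against 5.61, 3.46 and 4.83 CPM (WT A, B, C), and knockdown A alone stood below the WT range. Its log2 fold change was -0.30 (95% interval -0.93 to 0.33, adjusted p = 0.432), from 44 to 113 counts per library. The libraries of a group differed from each other by up to 1.13 (knockdown) and 0.70 (WT) on the log2 scale.

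Aars, the cytosolic alanyl-tRNA synthetase, charges alanine to its tRNA and has been proposed to lactylate lysine directly. It was at 631, 563 and 559 CPM (knockdown A, B, C) against 371, 399 and 408 CPM (WT A, B, C), every knockdown library above every WT library by a margin larger than the spread of either group. Aars (ENSMUSG00000031960, chromosome 8 from 111033144 to 111057664, plus strand) rose by 0.57 on the log2 scale (SE of 0.08, adjusted p = 2.39e-04), 1.49-fold, and the call held in each alternative run. Per length its level went from 42.2 ± 1.98 to 62.3 ± 5.15 FPKM (SD, n = 3). Exosc6 lies wholly within the 3′ end of Aars, on the same strand over 1326 bases, and had 0 counts. How reads of the shared stretch were assigned is not known. Aars2, the mitochondrial synthetase, was at 29.5, 27.1 and 24.03 CPM against 29.5, 27.1 and 32.4 CPM, with overlapping ranges and a log2 fold change of -0.14 (95% interval -0.40 to 0.11, adjusted p = 0.348).

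Of the enzymes of acetyl-CoA supply 1 of 2 was called, and it was higher. Acss2, which joins acetate to coenzyme A in the cytosol and nucleus, was at 5.64, 4.22 and 6.23 CPM (knockdown A, B, C) against 2.10, 2.69 and 2.47 CPM (WT A, B, C), from 108, 95 and 138 counts and 39, 45 and 42 counts. All knockdown libraries were above all WT libraries. Acss2 (ENSMUSG00000027605, chromosome 2 from 155517948 to 155585724, plus strand) rose by 1.15 on the log2 scale (SE of 0.23, adjusted p = 0.00196), 2.22-fold, and was called in each alternative in which it was tested. The median log2 fold change of the 110 tested genes within 5 Mb of Acss2 was 0.37, and that of the 112 around Hdac7 was 0.23, both of the sign of the gene. Around the other 8 called members it lay between -0.14 (Hdac8) and 0.04 (Hdac5). The part of such regional differences in the results was not tested. The 3′ part of Acss2 lies across from Gss, the glutathione synthetase gene on the other strand, over 22544 bases. Gss had 3906 counts against 467 for Acss2 and was higher by 0.67 (adjusted p = 0.000475), and the part of its reads in the counts of Acss2 was not tested. Acly, which cleaves citrate into acetyl-CoA, was far more abundant per length in WT, at 30.7 ± 2.08 FPKM against 0.237 ± 0.0284 for Acss2. Acly was at 156, 148 and 138 CPM (knockdown A, B, C) against 151, 163 and 174 CPM (WT A, B, C), a log2 fold change of -0.14 (95% interval -0.32 to 0.04, adjusted p = 0.186).

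Promoters of 4 called members are shown because they differ in their sequence elements while all 4 genes were higher in the knockdown. Each is the run of 250 bases before the start site in RefSeq (GRCm38.p6), 5′ to 3′ on the strand of the gene, and of 32 members 28 had an entry. The listed start was the one nearest to the 5′ end of the gene in the count table, which for Aars lay 698 bases and for Acss2 95 bases from it, and which start these cells used was not measured. Capitals mark matches, on both strands, to the CCAAT box (CCAAT), the GC box (GGGCGG), the E-box (CACGTG), the core of the cyclic AMP element (TGACG), the C/EBP-ATF composite site (TGATGNAA), a sterol element (TCACNCCA) and the TATA box (TATAAA), and neighbouring matches can touch or overlap.
Aars, plus strand, chr8:111033592-111033841: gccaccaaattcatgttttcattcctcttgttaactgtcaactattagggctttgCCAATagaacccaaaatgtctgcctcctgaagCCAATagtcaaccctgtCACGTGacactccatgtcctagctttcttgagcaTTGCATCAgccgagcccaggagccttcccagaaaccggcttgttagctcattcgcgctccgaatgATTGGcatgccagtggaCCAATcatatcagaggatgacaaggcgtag
Acss2, plus strand, chr2:155517793-155518042: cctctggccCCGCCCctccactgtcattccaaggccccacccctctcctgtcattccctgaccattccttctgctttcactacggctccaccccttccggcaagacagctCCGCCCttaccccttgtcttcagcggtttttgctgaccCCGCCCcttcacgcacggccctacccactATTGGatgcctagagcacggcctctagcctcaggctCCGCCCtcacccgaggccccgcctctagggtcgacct
Hdac5, minus strand, chr11:102230173-102230422: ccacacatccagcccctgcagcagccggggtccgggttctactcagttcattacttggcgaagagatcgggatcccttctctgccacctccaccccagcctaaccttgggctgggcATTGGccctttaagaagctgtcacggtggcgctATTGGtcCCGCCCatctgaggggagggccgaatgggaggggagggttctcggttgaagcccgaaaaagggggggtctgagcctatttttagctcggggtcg
Hdac9, minus strand, chr12:34917096-34917345: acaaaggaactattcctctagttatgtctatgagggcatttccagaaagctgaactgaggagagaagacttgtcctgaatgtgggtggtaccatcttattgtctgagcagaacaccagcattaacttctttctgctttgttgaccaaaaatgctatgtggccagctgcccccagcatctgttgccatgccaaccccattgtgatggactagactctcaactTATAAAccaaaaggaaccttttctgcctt

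The Aars run held 4 CCAAT boxes, an E-box and, beginning 112 bases before the start, the only match to the C/EBP-ATF composite site among the 28 members with an entry. Such a site is known as the element through which ATF4 acts on amino acid response genes. It occurred in 3.45% of 32841 RefSeq runs of the same length, the E-box in 6.02% and the CCAAT box in 33.9%. Acss2 held 4 GC boxes, found at least once in 32.7% of all runs, and 1 CCAAT box, and had no match to the sterol element letters (3.68% of all runs). Hdac5 held 2 CCAAT boxes and 1 GC box. Hdac9 had a TATA box 29 bases before its start, which 12.4% of all runs hold at any position, no CG dinucleotide, and a GC content of 44.4% against a median of 58.8% for the 28 members and 52.4% for all runs. Of the 7 higher members 4 held a CCAAT box, 2 a GC box and 2 a TATA box, so no element searched was common to all of them. Among all 28 members with an entry, 14 held a CCAAT box, 16 a GC box and 3 a TATA box. A match is a description of letters and not evidence of binding.

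The proposed writers of lactylation were counted together with Acss2, a proposed source of lactyl-CoA rather than a writer. Of these 9 genes 2 were higher (Aars and Acss2), 0 lower and 7 not called, with a median log2 fold change of 0.02. At an unadjusted p under 0.05 Kat7 was also lower and Crebbp also higher, and the share of all genes at that threshold is not given here. DESeq2 and limma-voom called 0 and 0 of the 9 genes lower. Other alternatives did call some: of 18, Ep300 was called lower in 4 and Kat7 in 1, while Crebbp was called higher in 3. The residual covariate was among these for each of the 3 genes. Of the 6 proposed erasers Hdac1, Hdac2, Hdac3, Sirt1, Sirt2 and Sirt3, 1 was higher (Sirt3) and 1 lower (Sirt2), with a median of -0.07. This list leaves out the class I gene Hdac8, which was called higher, and Sirt4, Sirt5, Sirt6 and Sirt7, which were not called. These are shares of 22.2% and 33.3%, beside 40.1% of all tested genes.

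Paralogues can be set against each other within a library, which removes any scaling between libraries. Of the summed FPKM of Ep300 and Crebbp, Ep300 made up 55.2%, 61.4% and 58.3% (knockdown A, B, C) against 70.00%, 75.3% and 68.6% (WT A, B, C). The share of Ep300 was thus lower in each knockdown library than in each WT library, although neither gene was called and Crebbp lies on the shifted chromosome 16. Kat6a made up 88.1%, 88.7% and 85.96% of Kat6a and Kat6b in the knockdown and 91.1%, 92.9% and 90.3% in WT, also without overlap. Neither Kat6a nor Kat6b was called, and Kat6b had only 20 to 50 counts per library. For Hdac6 against Hdac10, the class IIb pair, Hdac6 held 40.6%, 37.4% and 32.3% in the knockdown and 22.02%, 26.5% and 26.6% in WT, which follows the fall of Hdac10. Aars made up 91.7%, 91.4% and 92.3% of the alanyl-tRNA synthetases in the knockdown and 86.6%, 88.3% and 86.6% in WT. In contrast, the groups overlapped for Hdac1 of Hdac1 and Hdac2 (84.8%, 74.9% and 78.8% against 82.1%, 86.1% and 87.9%), for Kat2a and Kat2b, for Hdac5 and Hdac4, for Sirt3 and Sirt5, and for Sirt6 and Sirt7. No test is given for these shares, and how often the shares of other gene pairs do not overlap was not counted. For single genes, 50.9% of all tested genes had groups that did not overlap.

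**Figure D4:**
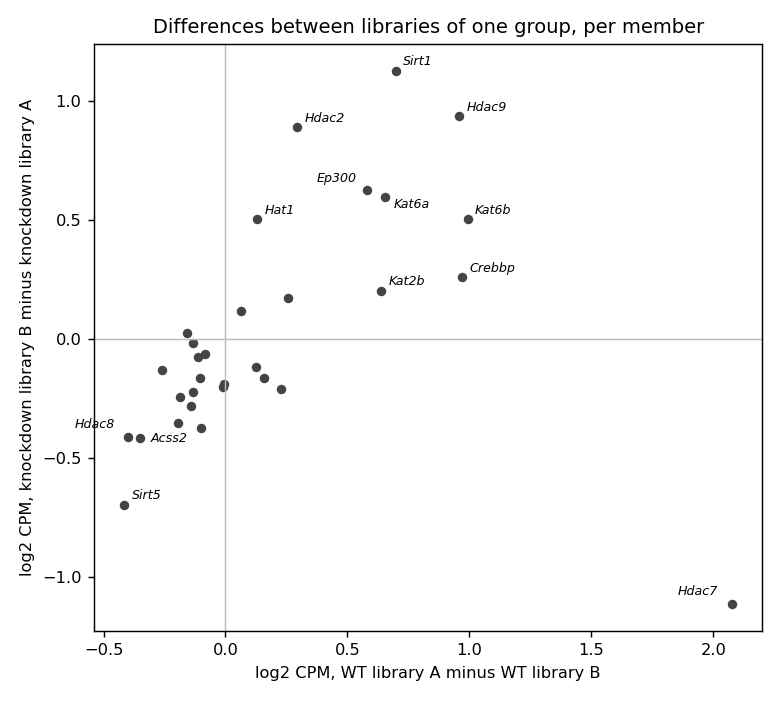
Each point is one tested member; the horizontal axis is its difference between WT libraries A and B and the vertical axis its difference between knockdown libraries B and A, both in log2 CPM. Most members fall in the lower left or upper right, with Sirt1, Hdac9, Ep300, Kat6a, Kat6b and Crebbp at the upper right and Sirt5 at the lower left, and Hdac7 stands alone. The libraries compared are the ends of the shared axis, so agreement in sign was likely in advance.

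Members also varied among themselves within a group, in a pattern seen in both groups. Libraries A and B are compared because they lie at the ends of the shared axis described above. Agreement in sign was therefore likely in advance. Of the 31 tested members 26 differed with the same sign between knockdown B and A as between WT A and B, 11 positive and 15 negative. Spearman's rho between the 2 differences was 0.64 over 31 members, and Pearson's r was 0.27, or 0.80 over 30 members without Hdac7, whose counts were 2 to 35. These coefficients run across genes of 4 libraries, which share depth and scaling, and are descriptions only. Over all tested genes, deviations from the group means correlated at 0.53 between knockdown B and WT A. Between knockdown A and WT B they correlated at 0.40. The pattern was thus not particular to the members, and its same-sign share over all genes was not counted. Sirt1 differed by 1.13 in the knockdown and 0.70 in WT on the log2 scale and Hdac9 by 0.93 and 0.96, while Ep300 (0.63 and 0.58), Kat6a (0.60 and 0.65), Kat6b (0.50 and 0.99) and Crebbp (0.26 and 0.97) showed the same sign. Sirt5 went the other way, at -0.70 and -0.41, as did Hdac8 (-0.41 and -0.40) and Acss2 (-0.42 and -0.35). Gene length was only weakly related to it, with a Spearman's rho of 0.17 in the knockdown and 0.28 in WT. In 3 of these genes, Ep300, Kat6a and Sirt5, leaving out knockdown B turned an uncalled difference into a call. Each was also called in other settings that kept knockdown B.

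**Figure D5:**
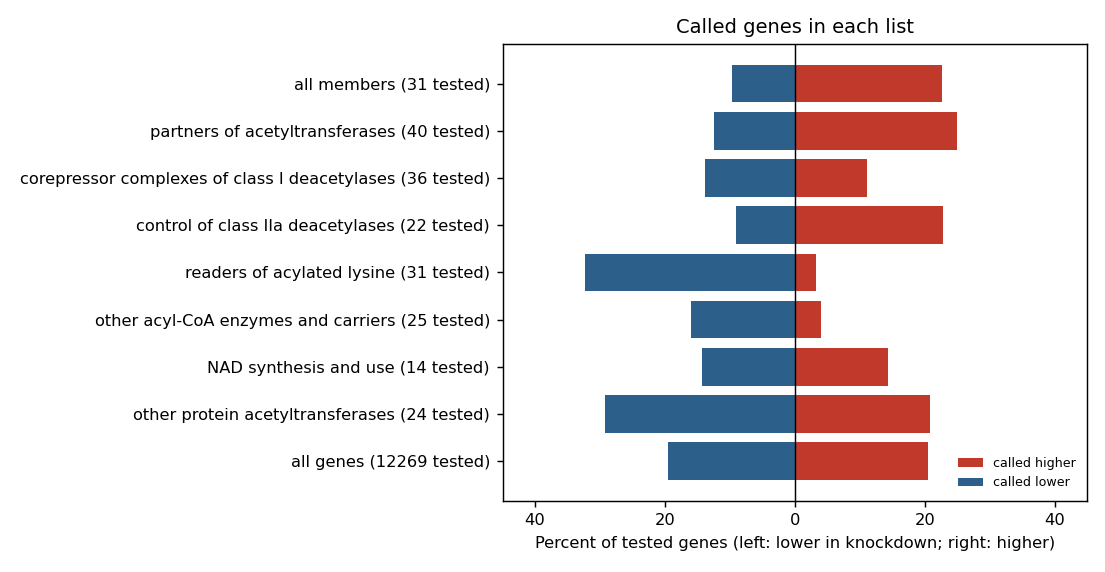
Percent of tested genes called higher (right, red) and lower (left, blue) in the knockdown, for the members, 7 lists of partner genes and all genes, with the number tested in parentheses. The readers of acylated lysine lie mostly to the left, at 10 lower and 1 higher of 31, while all genes are balanced.

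The partners of these enzymes were counted from 7 lists of genes outside the set, to be read beside the 40.1% of all tested genes that were called. A local median below is the median log2 fold change of the tested genes within 5 Mb. For called genes it is given where it had the sign of the gene and was at least 0.2 in size. Of 40 tested subunits and partners of acetyltransferases 10 were higher and 5 lower (37.5% called, median 0.11). With library totals this count of 15 was 23. Mcrs1, a subunit of the NSL complex of Kat8, rose by 0.53 on the log2 scale (SE of 0.07, adjusted p = 1.58e-04, local median 0.23), and Kansl3 of the same complex rose by 0.46 (SE of 0.09, adjusted p = 0.00155). Kansl1 (0.44) and Kansl2 (0.36, local median 0.24), named here after their values were seen, were also called higher. Kansl2 and Mcrs1 lie within 5 Mb of each other on chromosome 15, and the part of this region in both values was not tested. Phf20 had 0.47 without a call (adjusted p = 0.0767), while Kat8 itself had -0.15. A copy annotated as Kansl2-ps had 2184 counts, so the counts of Kansl2 are uncertain. Jade2, a scaffold of Kat7 complexes, rose by 0.48 (SE of 0.07, adjusted p = 3.66e-04). Ep400, the remodeller of the Kat5 complex, fell by 0.62 on the log2 scale (SE of 0.11, adjusted p = 0.00101), Msl1, the scaffold of the other Kat8 complex, fell by 0.45 (SE of 0.08, adjusted p = 0.00125), and Brpf1, the scaffold of Kat6a and Kat6b, fell by 0.43 (SE of 0.10, adjusted p = 0.00377).

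Of 36 corepressor genes of class I HDACs 4 were higher and 5 lower (25% called, median -0.12). Dnttip1, of the MiDAC complex, rose by 0.46 (SE of 0.10, adjusted p = 0.00375, local median 0.25), Rcor3, of CoREST, rose by 0.68 (SE of 0.17, adjusted p = 0.00852), and Mbd2, a methyl-DNA binding subunit of NuRD, rose by 0.31 (SE of 0.09, adjusted p = 0.0128, local median 0.43). Sap18, of SIN3, fell by 0.49 on the log2 scale (SE of 0.09, adjusted p = 9.60e-04), on chromosome 14, where the median tested gene had -0.32 and the local median was -0.36. Brms1 of SIN3 fell by 0.34 (SE of 0.09, adjusted p = 0.0131) and Mta1 of NuRD fell by 0.23 (SE of 0.07, adjusted p = 0.0261). The count of 9 called genes was 4 without knockdown C, 6 without WT C, 14 without knockdown B and 23 with the residual covariate.

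Genes that control class IIa HDACs had 5 of 22 higher and 2 lower (31.8% called, median 0.13). With library totals this count of 7 was 12. Camk1, a kinase that drives these HDACs out of the nucleus, rose from 257 ± 22.6 to 484 ± 55.9 CPM (SD, n = 3), by 0.92 on the log2 scale (SE of 0.10, adjusted p = 3.40e-05). The 14-3-3 gene Ywhag rose by 0.52 (SE of 0.09, adjusted p = 8.51e-04, local median 0.30) and the kinase Mark3 rose by 0.42 (SE of 0.09, adjusted p = 0.00388). Sik3, a salt-inducible kinase that phosphorylates class IIa HDACs, fell by 0.76 on the log2 scale (SE of 0.08, adjusted p = 2.16e-05), from 73.5 ± 2.61 to 43.4 ± 1.14 CPM, and Mark2 fell by 0.46 (SE of 0.09, adjusted p = 0.00159, local median -0.20). The MEF2 factors were not called, with Mef2a at -0.22, Mef2c at -0.12 and Mef2d at 0.17, which are named here after their values were seen.

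Readers of acylated lysine, mostly bromodomain and YEATS proteins, had 10 of 31 lower and 1 higher (35.5% called), with a median of -0.34 against 0.01 for all genes. The share called was below the 40.1% of all tested genes, of which 19.6% were lower. Smarca4, the BRG1 remodeller, fell by 0.63 on the log2 scale (SE of 0.08, adjusted p = 1.28e-04), from 84.5 ± 2.89 to 54.8 ± 4.16 CPM (SD, n = 3). Brd7, of the PBAF complex, fell by 0.85 (SE of 0.13, adjusted p = 3.65e-04) and Baz2a, of the nucleolar remodelling complex, fell by 0.59 (SE of 0.11, adjusted p = 0.00110). The higher gene was Brwd1 at 0.40 (adjusted p = 0.0339), which lies on chromosome 16, where the median was 0.40 and the local median 0.34. The 11 called readers numbered 5 without knockdown C, 6 without WT C and 18 with the residual covariate.

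Among other enzymes and carriers of acyl-CoA, 1 of 25 was higher and 4 lower (20% called, median 0.00). This count of 5 was 3 without knockdown C, 3 without WT B and 10 with library totals. Acat1, a mitochondrial thiolase, rose by 0.57 (SE of 0.10, adjusted p = 7.05e-04). Pank2 and Pank3, kinases at the start of coenzyme A synthesis, fell by 0.48 (SE of 0.11, adjusted p = 0.00456) and fell by 0.67 (SE of 0.19, adjusted p = 0.0164), and Acot7, a thioesterase, fell by 0.26 (SE of 0.09, adjusted p = 0.0281). Of 14 tested genes of NAD synthesis and use 2 were higher and 2 lower (28.6% called, median 0.08). The NAD count of 4 was 2 without knockdown A. Parp14 fell by 2.02 on the log2 scale (SE of 0.21, adjusted p = 1.79e-05), and Cd38, which hydrolyses NAD, fell by 1.10 (SE of 0.17, adjusted p = 4.29e-04). Sarm1, another NAD hydrolase, rose by 1.26 (SE of 0.38, adjusted p = 0.0203), from 0.531 ± 0.202 to 1.29 ± 0.235 CPM (SD, n = 3). It had 27, 23 and 32 counts in the knockdown (A, B, C) and 12, 5 and 11 in WT (A, B, C). Sarm1 passed the count filter only through the knockdown libraries, where it is high. Its call is thus not independent of that filter. Bst1, a relative of Cd38, rose by 0.57 (SE of 0.19, adjusted p = 0.0346).

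Acetyltransferases outside the set, for other lysines and for protein N-termini, had 5 of 24 higher and 7 lower (50% called, beside 40.1% of all tested genes, median 0.08). Kat14, of the ATAC complex of Kat2a, rose by 0.56 (SE of 0.08, adjusted p = 2.61e-04, local median 0.46), Naa20, of the NatB complex, rose by 0.60 (SE of 0.11, adjusted p = 0.00139, local median 0.42), and the nuclear receptor coactivator Ncoa3 rose by 0.42 (SE of 0.10, adjusted p = 0.00550, local median 0.22). Naa10, of NatA, fell by 0.51 on the log2 scale (SE of 0.08, adjusted p = 4.38e-04), Naa40, which acetylates the N-termini of histones H2A and H4, fell by 0.54 (SE of 0.10, adjusted p = 0.00102, local median -0.20), and Nat10, an acetyltransferase of RNA, fell by 0.48 (SE of 0.09, adjusted p = 0.00132). Leaving out knockdown C lowered this count of 12 to 7.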

How the data were processed

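The 3 SMEK1 knockdown and 3 WT RNA-seq libraries were grouped by the genotype label, and table columns were matched to samples by title. Per the labels' protocols, libraries were made with a SMARTER mRNA-Seq kit. The deposited counts are whole, unnormalized counts per gene. The deposited FPKM values of the authors are those counts divided by gene length and by a constant per library. The build is GRCm38 (mm10) per the submitters' processing notes; for the aligner, counter, strand use and annotation these sources give no name. FPKM served to compare levels between genes.

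Groups were compared with edgeR 4.0.16 (R 4.3.3): TMM scaling, filterByExpr, the quasi-likelihood test without covariates, and Benjamini-Hochberg adjustment over 12269 genes, with calls at an adjusted p under 0.05. Adjusted p-values in the text are from this test unless another is named. SE is the absolute log2 fold change over the root of F, and intervals are 95%. The procedure was tested on simulated counts. Alternatives were other scalings and filters, DESeq2 1.42.0, limma 3.58.1 (voom, and log2(FPKM + 1) or log2(FPKM + 0.1) for genes at a mean FPKM of at least 0.5), a replicate block, leaving out each library, a threshold of 0.01 and a residual covariate. All members are named, and from each partner list at most the 3 higher and 3 lower called genes of smallest adjusted p. Outside this rule Kansl1, Kansl2, Phf20, Mef2a, Mef2c and Mef2d are named, chosen after their values were seen. The members and lists were chosen with earlier results of these data known.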

Additional observations from a re-analysis of the deposited data

How the results depend on the processing

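Hdac5, Hdac9, Hdac10, Sirt3, Aars and Acss2 were called in the same direction under every alternative in which they were tested (18 for Hdac5, Hdac10, Sirt3 and Aars, and 16 for Hdac9 and Acss2), and so was Ppp4r3a. With library totals 12 members were higher and 1 lower, the partners of acetyltransferases had 23 calls, the control of class IIa deacetylases 12 and the other acyl-CoA enzymes 10, and the sign turned for Kat8 (0.0066), Hdac6 (0.088), Aars2 (0.013) and Acly (0.015), none of them called. Keeping genes at 1 count in any library gave 8 calls among acyl-CoA enzymes. With log2(FPKM + 1) and with log2(FPKM + 0.1) 4 members were higher, since the FPKM minimum removed low genes, and NAD genes had 2 calls. At an adjusted p under 0.01 all genes had 3181 calls, corepressors 3, readers 6, acyl-CoA enzymes 2, NAD genes 2 and other acetyltransferases 7. With the residual covariate, chosen after seeing the data, 12 members were higher and 9 lower, with 23 calls among partners, 23 among corepressors, 11 in class IIa control, 18 among readers and 11 among acyl-CoA enzymes.

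The replicate block by library letter gave 6 members higher and 2 lower and 3326 genes called, with 3 corepressors, 6 readers, 2 acyl-CoA enzymes and 7 other acetyltransferases, and Hdac8 (adjusted p = 0.0522 by edgeR) and Sirt2 (0.105) were no longer called. The letters do not show paired samples: deviations from the group means correlated at -0.47 for A, -0.46 for B and -0.01 for C. Leaving out 1 library at a time gave 6 to 10 members higher, 2 to 4 lower and 3703 to 4870 genes called. Calls ranged over 4 to 14 for corepressors, 5 to 13 for readers, 3 to 7 for acyl-CoA enzymes, 2 to 4 for NAD genes and 7 to 10 for other acetyltransferases. Log2 fold changes of uncalled members that turned sign ranged over -0.0505 to 0.0818 for Kat2a, -0.00579 to 0.11 for Kat5, -0.17 to 0.30 for Kat6b, -0.0287 to 0.11 for Hdac3 and -0.19 to 0.0113 for Hdac6. The cause of these shifts was not tested beyond what each setting changes. Counts were lowest for Hdac11 (0), Hdac7 (2 to 35 per library) and Kat6b (20 to 50).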
